A study of Mus musculus with 10 samples.

Results

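Collagen chains are the products of the genes named Col, a type number, the letter a and a chain number, and their transcripts were followed here in the terminal ileum of stressed and control mice. Every gene whose probe set carried a single platform symbol of exactly that form was taken, which gave 42 genes on 82 probe sets, of 18193 genes with a symbol of their own. For each chain the brightest of its probe sets, by mean over the 10 arrays, was used. By type, 11 were fibrillar chains, 6 were type IV chains of the basement membrane, and 25 belonged to other types. Of the 42 chains, 30 were above the floor on low values, 4.15 on the log2 scale, and 12 were below it.

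The stressed group was 5 male C57BL/6JJmsSlc mice put through subchronic and mild social defeat, in which a mouse is placed for short daily contacts with an aggressive older male of the ICR strain. Contact lasted 5 min after the first bite on day 1, was shortened by 0.5 min each day, and ended at 0.5 min on day 10. The control group was 5 unstressed male mice of the same strain. Mice of both groups entered the study at 7 weeks of age, were habituated singly to their cages and ate the purified diet AIN-93G, and food was withheld for 3 h before the lower small intestine was taken. Each mouse gave 1 array, a 3'-biased expression array, and values are log2 units of RMA, a method that corrects background and brings all arrays to a common distribution. The comparison asks how the ileal transcripts of the collagen family differ after repeated mild defeat.

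Collagens are proteins of the extracellular matrix in which chains wind around each other into a stiff helix. Fibrillar collagens are assembled into the banded fibrils that give the gut wall its tensile strength, and are made mainly by fibroblasts and smooth muscle cells. Type IV collagens form the sheet-like network under epithelium, endothelium and around muscle cells, and the remaining types decorate fibrils, build fine filaments or span cell membranes. In intact tissue, fewer cells of a type and less RNA per cell cannot be told apart.

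The array of control mouse 1 stood apart, correlating with the others at 0.918 to 0.947 across genes, against 0.975 to 0.995 among the other 9. Fabp6, the bile acid binding protein of ileal enterocytes, was at 13.95 to 14.10 in stressed mice and 13.88 to 13.93 in control mice 2 to 5, but at 7.88 in control mouse 1, far below the other 9 mice. The mean of 9 measured large intestine markers, relative to the 9 other arrays, was 2.03 in control mouse 1 and 1.25 in stressed mouse 4, and between -0.75 and 0.36 in the other mice. Stressed mouse 1 had a log2 ratio of 3' to 5' signal of control transcripts of 1.13, against 0.51 to 0.70 in the other stressed mice and 0.45 to 0.63 in control mice. The comparison was therefore made with all 10 arrays and again without control mouse 1.

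Of the collagen chains in these comparisons, only Col23a1, a transmembrane collagen, had a limma adjusted p under 0.05, and only where control mouse 1 was left out. There it was higher in stressed mice by 0.49 ± 0.085 (SE) on the log2 scale (limma adjusted p = 0.0306). The major fibrillar chains Col1a1, Col1a2 and Col3a1 and the basement membrane chains Col4a1 and Col4a2 overlapped between the groups in both comparisons. With all 10 arrays 0 of 30 measured chains had a limma p under 0.05 after Benjamini-Hochberg adjustment over the 13666 genes tested, and of all genes 0% did. At an unadjusted p under 0.05, 3 of the 30 chains were counted, against 7.82% of all genes. Of these, 2 were higher (Col6a4 and Col13a1), against 3.86% of all genes, and 1 was lower (Col20a1), against 3.96%. Without control mouse 1, 1 of 30 passed the adjusted threshold, against 0.798% of all genes, and 4 of 30 were at an unadjusted p under 0.05, against 18.0% of all genes. Of these, 3 were higher (Col23a1, Col6a4 and Col4a5), against 11.4% of all genes, and 1 was lower (Col20a1), against 6.56%. The values of the groups did not overlap for 2 of the 30 chains without control mouse 1, against 7.24% of all genes: Col23a1 was higher throughout, as were 4.51% of all genes, and Col20a1 lower throughout, as were 2.72%. With all 10 arrays 0 of 30 did not overlap, against 2.28% of all genes (1.16% higher and 1.12% lower).

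Without control mouse 1, 20 of the 30 chains were higher in stressed mice, with a median difference of 0.10, while 56.2% of all genes were higher and their median was 0.025. With all 10 arrays 15 of the 30 were higher and the median was -0.0010, beside 50.9% of all genes higher and a median of 0.0031. Leaving out control mouse 1 turned the sign of 7 chains, of which 6 became higher and 1, Col7a1, became lower. The intervals of 15 of the 30 differences lay within 0.5 log2 units of 0 without control mouse 1. Those of the other 15 reached past 0.5 on at least one side.

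**Figure D1:**
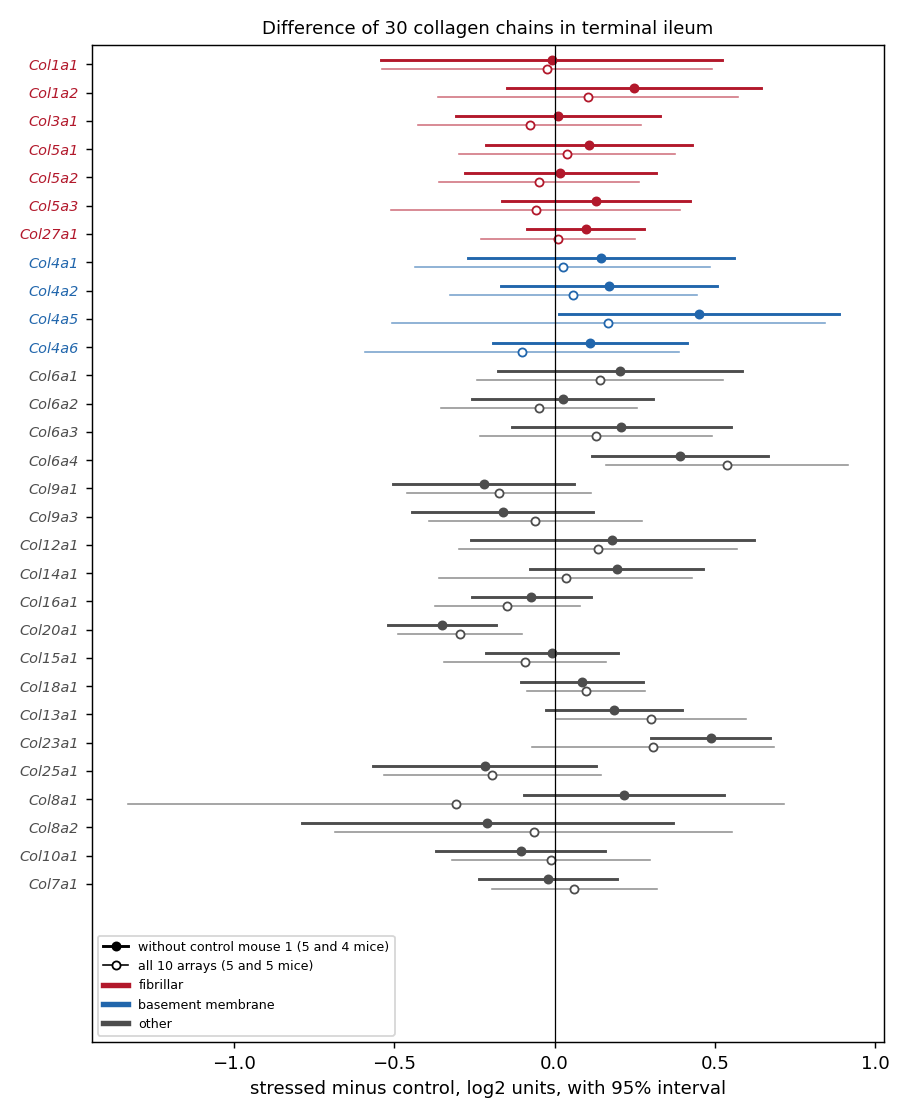
Difference between stressed and control ileum (horizontal axis, log2 units, stressed minus control) for the 30 measured collagen chains (rows), with 95% intervals from limma. Filled points leave out control mouse 1 and open points use all 10 arrays. Most intervals cross 0, and Col23a1 at 0.49 without control mouse 1 was the chain that passed the adjusted threshold.

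Col23a1 encodes a chain anchored in the cell membrane, whose ectodomain can be shed and which binds an integrin on keratinocytes. The stretch around its annotated start is shown because it was the chain that passed. The stretch runs from 150 bases before to 50 bases after the start on GRCm38.p6 (RefSeq), chr11:51289770-51289969, plus strand. Capitals mark a GC box, searched as GGGCGG and here found as its reverse complement CCGCCC. The TATA box, searched as TATAAA, and the CCAAT box, searched as CCAAT, were not in the stretch on either strand.
Col23a1: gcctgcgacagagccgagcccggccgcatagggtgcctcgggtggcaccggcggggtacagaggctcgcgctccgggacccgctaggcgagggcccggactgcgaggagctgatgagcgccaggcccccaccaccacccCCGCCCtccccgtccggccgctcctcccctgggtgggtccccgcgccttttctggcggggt
Col23a1 was at 6.67, 6.58, 6.74, 6.72 and 6.85 in stressed mice 1 to 5, against 6.37, 6.09, 6.14 and 6.29 in control mice 2 to 5. Every stressed mouse was above each of these 4 controls, but control mouse 1 was at 7.12, above every other mouse. With all 10 arrays the groups therefore overlapped and the difference was 0.31 ± 0.17 (SE), at a limma adjusted p of 0.731. The other 2 probe sets of the gene were also higher in stressed mice without control mouse 1, by 0.49 and by 0.23. On the first of these, stressed mice were at 6.25, 5.78, 5.75, 6.02 and 5.72, against 5.50, 5.20, 5.46 and 5.49 in control mice 2 to 5 and 6.21 in control mouse 1, so that only control mouse 1 overlapped. On the second, stressed mice were at 5.64, 5.38, 5.67, 5.52 and 5.52, against 5.40, 5.38, 5.11 and 5.38 in control mice 2 to 5 and 6.08 in control mouse 1. Stressed mouse 2 fell among the controls there, so the groups overlapped also without control mouse 1. These 2 probe sets differed by 0.33 and 0.074 with all 10 arrays. The adjusted p of Col23a1 was above the threshold when any 1 of 7 further mice was left out beside control mouse 1 (control mice 2, 3 and 4 and stressed mice 1, 3, 4 and 5), reaching 0.0875 without stressed mouse 4, while over all 9 such omissions its difference lay between 0.44 and 0.54. With the 3' to 5' ratio as a covariate it was 0.50, with an adjusted p of 0.0582.

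The other transmembrane chains were Col13a1, Col25a1 and Col17a1. Col13a1, which takes part in cell adhesion and in the maturation of the neuromuscular junction, was at 6.28, 6.22, 6.23, 6.35 and 6.37 in stressed mice, against 6.00, 5.86, 6.24 and 6.31 in control mice 2 to 5 and 5.52 in control mouse 1. Its stressed values lay close together and above the lower controls, while control mice 4 and 5 reached into their range. The difference was 0.30 ± 0.13 (SE) with all 10 arrays and 0.19 ± 0.097 (SE) without control mouse 1, with limma adjusted p of 0.630 and 0.335. Col25a1, a chain of neurons known from motor innervation, differed by -0.22 ± 0.16 (SE) without control mouse 1 and -0.19 with all 10 arrays, and ranged from 5.91 to 6.14 in stressed mice, against 5.83 to 6.79 in those 4 controls. Col17a1, of the hemidesmosomes that hold skin epithelium to its basement membrane, was below the floor.

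The fibrillar chains showed no difference that passed either comparison. Of 11 fibrillar chains on the array, 7 were measured (Col1a1, Col1a2, Col3a1, Col5a1, Col5a2, Col5a3 and Col27a1). Col2a1, Col11a1, Col11a2 and Col24a1 were below the floor, the first 3 of them chains of cartilage fibrils. Without control mouse 1, 6 of the 7 were higher in stressed mice with a median difference of 0.098, and with all 10 arrays 3 were higher and 4 lower with a median of -0.024. No fibrillar chain was at an unadjusted p under 0.05 in limma in either comparison, against 18.0% of all genes without control mouse 1 and 7.82% with all 10 arrays. With so few chains, that is near the share over all genes.

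Col1a2 encodes the second chain of type I collagen, the main fibril of most connective tissue. Its stretch around the annotated start, chr6:4505468-4505667 on the plus strand of GRCm38.p6 (RefSeq), stands for the fibrillar class, with capitals at CCAAT or its reverse complement ATTGG.
Col1a2: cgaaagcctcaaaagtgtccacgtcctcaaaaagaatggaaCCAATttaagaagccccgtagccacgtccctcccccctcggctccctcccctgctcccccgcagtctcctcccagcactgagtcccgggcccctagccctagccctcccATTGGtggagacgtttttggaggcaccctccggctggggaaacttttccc
Col1a2 was at 11.34, 10.68, 10.74, 11.07 and 10.39 in stressed mice, against 10.69, 10.33, 10.44 and 10.93 in control mice 2 to 5 and 11.32 in control mouse 1. Stressed mice 1 and 4 and control mouse 1 were the highest, stressed mouse 5 and control mice 3 and 4 were the lowest, and the groups overlapped. The difference was 0.25 ± 0.18 (SE) without control mouse 1 (95% interval -0.15 to 0.64) and 0.10 ± 0.21 (SE) with all 10 arrays. Col1a1, its partner chain in the type I helix, was at 7.85, 7.00, 7.04, 7.01 and 6.30 in stressed mice, against 7.34, 6.76, 6.89 and 7.20 in control mice 2 to 5 and 7.12 in control mouse 1. The lowest and the highest of all values were both in stressed mice, and the difference was -0.0092 ± 0.24 (SE) without control mouse 1. A second Col1a1 probe set gave 0.31 in that comparison and 0.24 with all 10 arrays, against -0.0092 and -0.024 for the one used, so that the gene's probe sets disagreed in sign.

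Col3a1, the fibrillar chain of distensible organs such as gut and vessels, was at 11.79, 11.26, 11.47, 11.50 and 10.94 in stressed mice, against 11.47, 11.30, 11.23 and 11.52 in control mice 2 to 5 and 11.82 in control mouse 1. The stressed range enclosed all control values but that of control mouse 1, and the difference was 0.011 ± 0.14 (SE) without that mouse (95% interval -0.31 to 0.33) and -0.077 ± 0.16 (SE) with all 10 arrays. Type V chains set the diameter of type I fibrils. Col5a1 differed by 0.11 ± 0.15 (SE) and Col5a2 by 0.018 ± 0.14 (SE) without control mouse 1, and by 0.039 and -0.048 with all 10 arrays. Col5a2 was at 8.31, 7.75, 7.85, 7.96 and 7.55 in stressed mice, against 8.02, 7.68, 7.83 and 7.93 in control mice 2 to 5 and 8.20 in control mouse 1, again with stressed mouse 1 highest and stressed mouse 5 lowest of all 10.

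Col5a3, another type V chain, was at 5.37, 5.14, 5.07, 5.14 and 4.74 in stressed mice, against 5.16, 4.68, 4.87 and 5.15 in control mice 2 to 5 and 5.90 in control mouse 1. Its groups overlapped, and it differed by 0.13 ± 0.13 (SE) without control mouse 1 and -0.059 ± 0.21 (SE) with all 10 arrays. Col27a1, a chain of cartilage fibrils, was at 7.32, 7.00, 7.06, 7.21 and 7.16 in stressed mice, against 6.97, 7.15, 6.99 and 7.10 in control mice 2 to 5 and 7.49 in control mouse 1. Its stressed values overlapped those of control mice 2 to 5, and it differed by 0.098 ± 0.083 (SE) without control mouse 1 and 0.0097 ± 0.11 (SE) with all 10 arrays. For both chains control mouse 1 was above every other mouse.

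**Figure D2:**
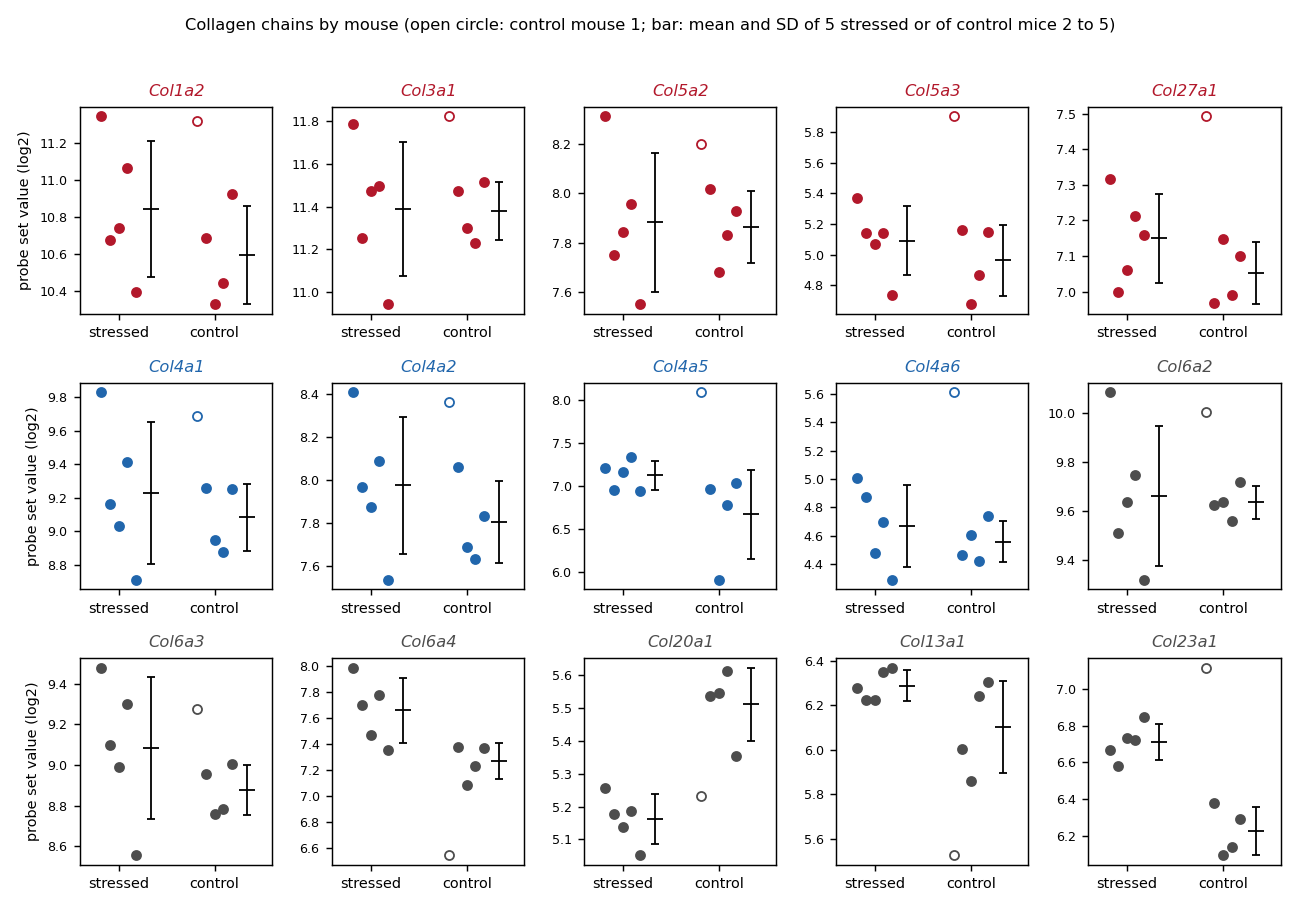
Probe set values (vertical axes, log2 units) of 15 collagen chains in stressed mice (left) and control mice (right), 1 point a mouse in order of mouse number, with the mean and SD of the 5 stressed mice and of control mice 2 to 5. The open circle is control mouse 1, which lies above all other mice for Col23a1 at 7.12 and below them for Col6a4 at 6.54.

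Of the 6 basement membrane chains 4 were measured, and Col4a3 and Col4a4, known from the kidney glomerulus, were below the floor. All 4 measured chains were higher in stressed mice without control mouse 1, with a median difference of 0.16. With all 10 arrays 3 of the 4 were higher, with a median of 0.042. None passed the adjusted threshold, and Col4a5 without control mouse 1 was the only one at an unadjusted p under 0.05 in limma. Of all genes, 18.0% were at such a p without control mouse 1 and 7.82% with all 10 arrays.

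Col4a1 and Col4a2 form the common type IV network and are transcribed in opposite directions. Their annotated starts lie 21 bases apart on chromosome 8, that of Col4a2 at the lower coordinate, so that the annotated transcripts overlap at their starts. The stretch chr8:11312655-11312854 of GRCm38.p6 (RefSeq), written on the strand of Col4a2, holds both starts. It is shown because this pair varied in the same order over the mice. Capitals mark CCAAT and the GC box on either strand.
Col4a1 and Col4a2: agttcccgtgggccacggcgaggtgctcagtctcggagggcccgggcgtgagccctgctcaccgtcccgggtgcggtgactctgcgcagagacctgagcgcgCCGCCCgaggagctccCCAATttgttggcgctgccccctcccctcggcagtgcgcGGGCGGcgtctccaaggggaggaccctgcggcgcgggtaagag
Col4a1 was at 9.83, 9.16, 9.03, 9.41 and 8.71 in stressed mice, against 9.26, 8.95, 8.87 and 9.25 in control mice 2 to 5 and 9.69 in control mouse 1. Col4a2 was at 8.41, 7.97, 7.88, 8.09 and 7.54 in stressed mice, against 8.06, 7.69, 7.63 and 7.83 in control mice 2 to 5 and 8.37 in control mouse 1. From high to low, both chains ran stressed mouse 1, 4, 2, 3 and 5, and control mouse 1, 2, 5, 3 and 4. Of 8 pairs of partner chains set side by side, chosen after their values had been seen, this was the 1 pair with the same order in both groups. In the stressed group alone 3 of the 8 pairs matched, the others being Col5a1 with Col5a2 and Col6a1 with Col6a2. Col6a3 had the same stressed order as Col4a1 and Col4a2. The groups overlapped, with differences of 0.15 ± 0.19 (SE) for Col4a1 and 0.17 ± 0.15 (SE) for Col4a2 without control mouse 1 (95% intervals -0.27 to 0.56 and -0.17 to 0.51). The differences with all 10 arrays were 0.025 and 0.058.

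Col4a5 and Col4a6 lie head to head on the X chromosome, with annotated starts 1343 bases apart, and together form the type IV network around smooth muscle. Col4a5 was at 7.21, 6.95, 7.17, 7.34 and 6.95 in stressed mice, against 6.96, 5.91, 6.78 and 7.04 in control mice 2 to 5 and 8.09 in control mouse 1. Control mouse 3 was the lowest and control mouse 1 the highest of the 10, with the stressed mice close together between them. The difference was 0.45 ± 0.20 (SE) without control mouse 1 (limma adjusted p = 0.262), and 0.17 ± 0.31 (SE) with all 10 arrays. Without control mice 1 and 3 it was 0.20. Col4a6 was at 5.00, 4.87, 4.48, 4.70 and 4.29 in stressed mice, against 4.46, 4.61, 4.42 and 4.74 in control mice 2 to 5 and 5.61 in control mouse 1, and differed by 0.11 ± 0.14 (SE) without that mouse and -0.10 ± 0.22 (SE) with all 10 arrays, with overlapping groups.

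Among type VI chains, which build beaded filaments around cells, Col6a4 had the smallest p, and neither it nor the chains of the common filament passed. Of 5 chains on the array 4 were measured and Col6a5 was below the floor. All 4 were higher in stressed mice without control mouse 1, with a median of 0.21, and 3 of 4 with all 10 arrays, with a median of 0.14. Col6a4, an alternative to Col6a3 in the filament, was at 7.99, 7.70, 7.47, 7.78 and 7.35 in stressed mice, against 7.38, 7.09, 7.23 and 7.37 in control mice 2 to 5 and 6.54 in control mouse 1. Stressed mice 1 to 4 were above every control, and stressed mouse 5 lay just below control mice 2 and 5. The difference was 0.54 ± 0.17 (SE) with all 10 arrays and 0.39 ± 0.13 (SE) without control mouse 1, with limma adjusted p of 0.446 and 0.144.

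Col6a1, Col6a2 and Col6a3 form the common type VI filament. Col6a3, its largest chain, was at 9.48, 9.10, 8.99, 9.30 and 8.56 in stressed mice, against 8.96, 8.76, 8.78 and 9.005 in control mice 2 to 5 and 9.28 in control mouse 1. Col6a2 was at 10.08, 9.51, 9.64, 9.75 and 9.32 in stressed mice, against 9.63, 9.64, 9.56 and 9.72 in control mice 2 to 5 and 10.00 in control mouse 1. Both had their highest and lowest value in stressed mice 1 and 5, and they differed by 0.21 ± 0.16 (SE) and 0.025 ± 0.13 (SE) without control mouse 1, and by 0.13 and -0.049 with all 10 arrays. Col6a1 differed by 0.20 ± 0.17 (SE) without control mouse 1 and 0.14 with all 10 arrays.

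Collagens that sit on the surface of fibrils (the FACIT types IX, XII, XIV, XVI, XIX, XX and XXII) were lower in stressed mice for 4 of 6 measured chains in both comparisons, with medians of -0.10 with all 10 arrays and -0.12 without control mouse 1. Col9a2, Col19a1 and Col22a1 were below the floor. Col20a1, the type XX chain, was at 5.26, 5.18, 5.14, 5.19 and 5.05 in stressed mice, against 5.54, 5.55, 5.61 and 5.35 in control mice 2 to 5 and 5.23 in control mouse 1. Every stressed mouse was below control mice 2 to 5, while control mouse 1 fell among the stressed mice. The difference was -0.35 ± 0.077 (SE) without control mouse 1 and -0.29 ± 0.088 (SE) with all 10 arrays, with limma adjusted p of 0.0599 and 0.420. The 2 other Col20a1 probe sets above the floor differed by -0.062 and 0.10 without control mouse 1, so that the gene's probe sets differed in sign.

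The remaining fibril-associated chains overlapped between the groups. Col12a1 and Col14a1, which bind to the surface of type I fibrils, differed by 0.18 ± 0.20 (SE) and 0.19 ± 0.12 (SE) without control mouse 1. Col16a1 differed by -0.072 ± 0.085 (SE), and the type IX chains Col9a1 and Col9a3, best known from cartilage, by -0.22 ± 0.13 (SE) and -0.16 ± 0.13 (SE). Control mouse 1 included, the differences were 0.14 for Col12a1, 0.035 for Col14a1, -0.15 for Col16a1, -0.17 for Col9a1 and -0.060 for Col9a3. Stressed mouse 5, the lowest stressed mouse for 6 of 7 fibrillar chains, was the highest stressed mouse for both type IX chains, at 5.00 and 5.06.

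Chains of basement membrane zones and of fine networks showed no difference that passed. Col15a1 and Col18a1, which carry heparan or chondroitin sulfate and lie at basement membranes, differed by -0.0077 ± 0.094 (SE) and 0.087 ± 0.087 (SE) without control mouse 1, and by -0.091 and 0.099 with all 10 arrays. Col7a1, of the anchoring fibrils of skin, differed by -0.020 ± 0.098 (SE) without control mouse 1 and 0.062 with all 10 arrays. Col8a1, of the short-chain network in vessel walls, ranged from 5.18 to 5.70 in stressed mice, against 5.07 to 5.68 in control mice 2 to 5 and 7.96 in control mouse 1. Its difference was 0.22 ± 0.14 (SE) without control mouse 1 and -0.31 ± 0.47 (SE) with all 10 arrays. Its partner Col8a2 ranged from 4.45 to 6.07 in stressed mice, the widest span of the 30 chains in that group, against 5.07 to 5.60 in control mice 2 to 5, and differed by -0.21 ± 0.26 (SE) without control mouse 1 and -0.065 with all 10 arrays. Col10a1, a chain of hypertrophic cartilage, stood just above the floor and differed by -0.11 ± 0.12 (SE) without control mouse 1 and -0.012 with all 10 arrays. Col26a1 was below the floor.

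The 12 chains below the floor ranged from 2.24 to 4.53 over the 10 arrays. They were tested only where no filter on low values was applied, and there 0 of 12 passed limma at an adjusted p under 0.05, beside 0% of all 18193 genes with all 10 arrays and 0.489% without control mouse 1. At an unadjusted p under 0.05 with all 10 arrays there were 3 of the 12, against 7.72% of all genes. All 3 were lower in stressed mice (Col4a4, Col9a2 and Col26a1), as were 4.47% of all genes, and 0 were higher, against 3.25%. Without control mouse 1 there were 4 of the 12, against 16.2% of all genes. Of these, Col2a1, Col4a4 and Col9a2 were lower, as were 7.32% of all genes, and Col24a1 was higher, as were 8.93%.

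Within the stressed group the same mice were at the ends for most chains. Stressed mouse 1 was the highest of the 5 stressed mice for 22 of 30 measured chains, while over all genes it was the highest for 29.0%. Stressed mouse 5 was the lowest of the 5 for 21 of 30, against 29.0% of all genes. Stressed mouse 1 was highest for 7 of 7 fibrillar chains, 3 of 4 basement membrane chains and 12 of 19 others. The spread was larger in stressed mice than in control mice 2 to 5 for 20 of 30 chains, against 43.9% of all genes, with a median SD of 0.23 in stressed mice and 0.19 in those controls. This held only without control mouse 1. With that mouse included, the control SD was the larger one for most chains (1.20 against 0.21 in stressed mice for Col8a1). The stressed SD was larger for the rest (0.55 against 0.24 for Col1a1).

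**Figure D3:**
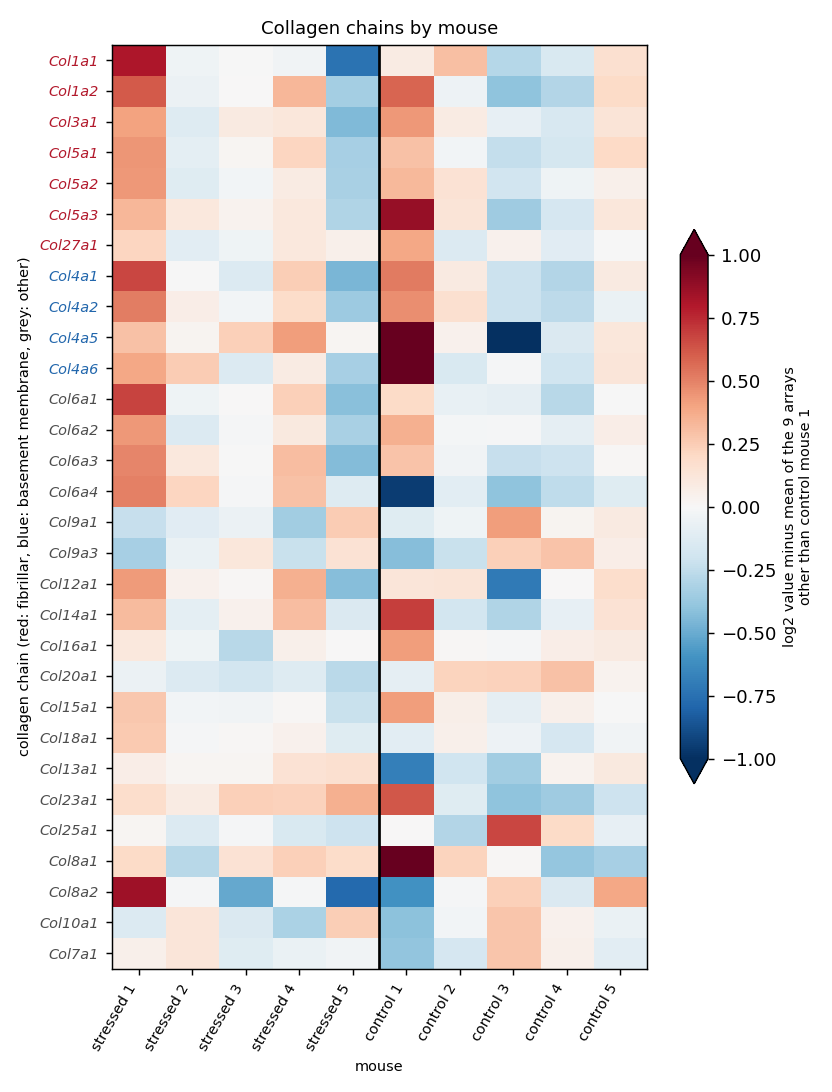
Value of each measured collagen chain (rows) in each mouse (columns), as log2 difference from its mean over the 9 arrays other than control mouse 1, with colours limited to 1 log2 unit. Stressed mouse 1 was the highest stressed mouse for 22 of 30 chains and stressed mouse 5 the lowest for 21.

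Markers of smooth muscle and fibroblasts had the same mice at the high end, as did markers of pericytes and of enteric glia and neurons. The mean over fibrillar chains, relative to the 9 arrays, was 0.46 in stressed mouse 1 and -0.35 in stressed mouse 5, and the mean over 12 of 12 measured smooth muscle markers was 0.55 and -0.34 in the same mice. The absolute mean of those markers ran from 9.89 to 10.78 in stressed mice, against 10.05 to 10.42 in control mice 2 to 5 and 11.05 in control mouse 1. The mean over 13 of 15 fibroblast markers ran from 7.98 to 8.41 in stressed mice, against 7.93 to 8.13 in control mice 2 to 5 and 8.50 in control mouse 1. Relative to the 9 arrays, stressed mouse 1 was at 0.31 over these markers. It was at 0.45 over enteric glia and neuron, 0.40 over pericyte and 0.39 over mesothelial markers. Control mouse 1 was at 0.39, 0.59, 0.28 and -0.37 over the same lists. Over ileal epithelial, B cell, T cell, large intestine, and pancreas and mesenteric fat markers stressed mouse 1 was below 0. No smooth muscle marker was below the floor, and of the fibroblast markers on the array Foxl1 was. Smooth muscle markers were higher in stressed mice for 8 of 12 without control mouse 1 (median 0.082) and for 4 of 12 with all 10 arrays (median -0.057). Fibroblast markers were higher for 10 of 13 (median 0.16) and 6 of 13 (median -0.0044) in the same comparisons, where 56.2% and 50.9% of all genes were higher. The high 3' to 5' ratio of stressed mouse 1 stands beside its high means over the fibrillar chains and these markers. The part of smooth muscle, fibroblasts, the other cell types or RNA quality in the pattern was not tested. With the ratio as a covariate and without control mouse 1, the differences of 7 of the 15 chains plotted by mouse turned from above 0 to below 0. These were Col3a1, Col5a2, Col5a3, Col4a1, Col4a2, Col4a6 and Col6a2, between -0.15 and -0.0032 with the covariate. Col20a1 was below 0 with and without it. The ratio was 1.13 in stressed mouse 1 and at most 0.70 in every other mouse. The covariate thus largely marked 1 mouse, and RNA quality cannot be told apart there from other traits of that mouse.

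Markers of vessels, nerves, epithelium and serosa did not pass, and their medians moved when control mouse 1 was left out. Pericyte markers were higher in stressed mice for 6 of 6 without control mouse 1 (median 0.24) and for 4 of 6 with all 10 arrays (median 0.13). Endothelial markers were higher for 9 of 10 (median 0.16) and 8 of 10 (median 0.072) in the same comparisons. Cdh5, the cadherin of endothelial junctions, differed by 0.44 ± 0.092 (SE) without control mouse 1 and 0.34 ± 0.12 (SE) with all 10 arrays, with limma adjusted p of 0.0535 and 0.509. Enteric glia and neuron markers were higher for 8 of 9 without control mouse 1 (median 0.23) and for 8 of 9 with all 10 arrays (median 0.098). Ileal epithelial markers were higher for 11 of 13 (median 0.094) and 12 of 13 (median 0.25), and mesothelial markers for 3 of 5 (median 0.075) and 3 of 5 (median 0.16). Beside these counts, 56.2% of all genes were higher without control mouse 1 and 50.9% with all 10 arrays.

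Among markers of immune cells and of large intestine, Cd7 and Car4 passed, without control mouse 1. Cd7, of T cells, fell by 0.39 ± 0.077 (SE) there, at a limma adjusted p of 0.0459. Over all 10 arrays Cd7 differed by -0.33 ± 0.090 (SE), at a limma adjusted p of 0.385. T cell markers were lower in stressed mice for 5 of 6 in both comparisons, with medians of -0.37 without control mouse 1 and -0.30 with all 10 arrays. B cell markers were lower for 3 of 3 (medians -0.66 and -0.53 in the same comparisons), and macrophage markers for 7 of 9 and 8 of 9 (medians -0.20 and -0.17), with 0 passing. Of all 13666 genes, 5979 were lower without control mouse 1 and 6705 with all 10 arrays.

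Car4, a carbonic anhydrase of large intestine, fell by 1.12 ± 0.15 (SE) without control mouse 1, at a limma adjusted p of 0.0184. Car4 differed by -1.18 ± 0.15 (SE) with all 10 arrays, at a limma adjusted p of 0.0605. Large intestine markers as a list were lower for 5 of 9 and higher for 4 of 9 without control mouse 1, with a median of -0.029, and lower for 6 of 9 with all 10 arrays, with a median of -0.19. Pancreas and mesenteric fat markers were lower for 3 of 5 in both, with medians of -0.097 and -0.29, and 0 passed. The part of these cells in the values of Col23a1 was not tested.

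**Figure D4:**
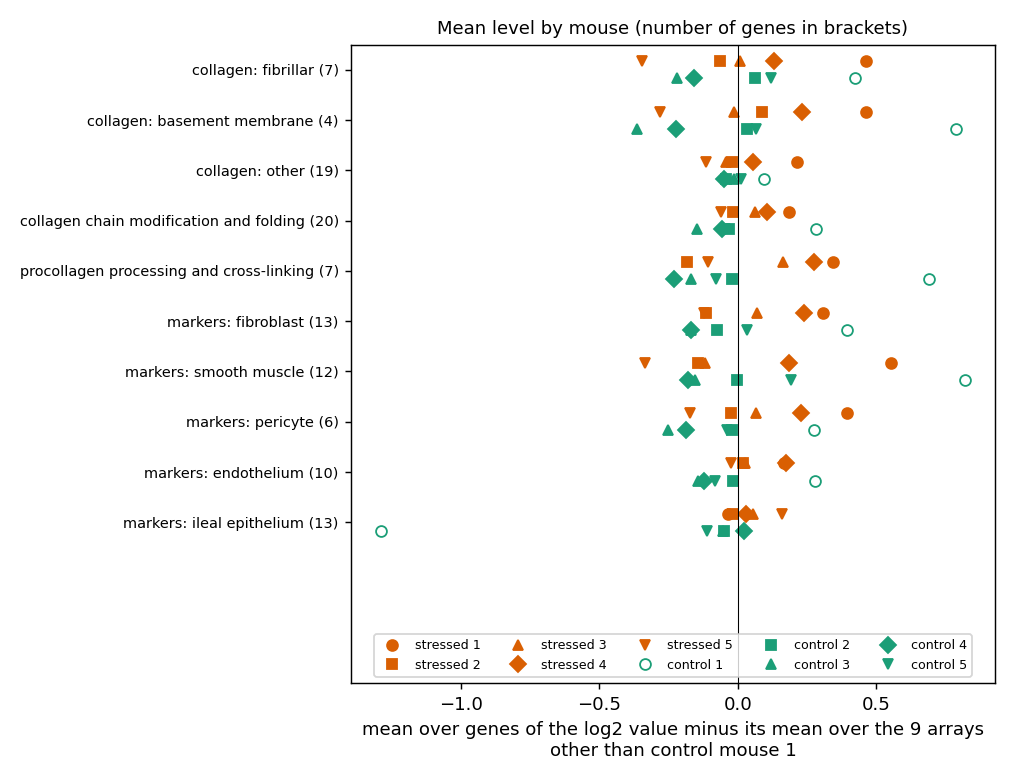
Mean over genes of the log2 value, relative to its mean over the 9 arrays other than control mouse 1 (horizontal axis), for collagen classes, collagen processing genes and cell type markers (rows), 1 point a mouse, with stressed mice above control mice in each row. Fibrillar chains spanned -0.35 to 0.46 in stressed mice and smooth muscle markers -0.34 to 0.55, while ileal epithelial markers were at -1.29 in control mouse 1.

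Genes that modify and fold new collagen chains were higher in stressed mice for 16 of 20 measured genes without control mouse 1, with a median difference of 0.086, and for 13 of 20 with all 10 arrays, with a median of 0.050. Over all genes, 56.2% were higher without control mouse 1 (median 0.025) and 50.9% with all 10 arrays (median 0.0031). These shares also stand beside the lists of related genes below. None of the 20 genes passed the adjusted threshold in limma in either comparison. At an unadjusted p under 0.05 there were 5 of 20 without control mouse 1, against 18.0% of all genes, and 1 of 20 with all 10 arrays, against 7.82%. P4ha2, a prolyl hydroxylase subunit that stabilises the helix, averaged 5.34 ± 0.092 (SD, n = 5) in stressed mice and 4.99 ± 0.16 (SD, n = 4) in control mice 2 to 5, and was at 5.70 in control mouse 1. The lysyl hydroxylases Plod1 and Plod2, which prepare chains for cross-linking, differed by 0.44 ± 0.13 (SE) and 0.31 ± 0.092 (SE) without control mouse 1, and by 0.30 ± 0.17 (SE) and 0.24 ± 0.11 (SE) with all 10 arrays. These 3 genes, picked for their small p, had groups that did not overlap once control mouse 1 was left out, as did 7.24% of all genes, and limma adjusted p of 0.0816, 0.112 and 0.121.

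Of 7 measured genes that process procollagen or cross-link fibrils, 6 were higher without control mouse 1, with a median of 0.10, and 4 with all 10 arrays, with a median of 0.016. None passed in limma in either comparison. Bmp1, the protease that removes the C-terminal propeptide, averaged 6.77 ± 0.18 (SD, n = 5) in stressed mice and 6.35 ± 0.11 (SD, n = 4) in control mice 2 to 5, with 6.55 in control mouse 1. Its difference was 0.43 ± 0.098 (SE) without that mouse and 0.38 ± 0.10 (SE) with all 10 arrays, with limma adjusted p of 0.0639 and 0.351. Pcolce2, an enhancer of that cleavage, differed by 0.72 ± 0.19 (SE) without control mouse 1 and 0.20 ± 0.48 (SE) with all 10 arrays, with limma adjusted p of 0.0919 and 0.946. Lox, the lysyl oxidase that starts cross-links, differed by 0.30 ± 0.12 (SE) and 0.12 ± 0.19 (SE) in the same comparisons, with limma adjusted p of 0.212 and 0.906.

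Genes of collagen breakdown and its inhibitors were higher in 12 of 17 measured genes without control mouse 1, with a median of 0.075, and in 13 of 17 with all 10 arrays, with a median of 0.11. Collagen receptors were higher in 5 of 6, with a median of 0.12, and in 3 of 6, with a median of 0.039, in the same comparisons. None of these genes passed in limma in either. Timp3, a matrix-bound inhibitor of metalloproteinases, differed by 0.40 ± 0.10 (SE) without control mouse 1 and 0.21 ± 0.19 (SE) with all 10 arrays, with limma adjusted p of 0.0841 and 0.823. Fap, a protease of activated fibroblasts, differed by 0.51 ± 0.15 (SE) and 0.20 ± 0.30 (SE), and the gelatinase Mmp9 by -0.27 ± 0.11 (SE) and -0.21 ± 0.12 (SE). Ddr2, a receptor tyrosine kinase for collagen, differed by 0.42 ± 0.14 (SE) without control mouse 1 and 0.23 ± 0.21 (SE) with all 10 arrays, with limma adjusted p of 0.161 and 0.823.

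The matrix proteins that accompany collagens and the TGF-beta pathway, a main inducer of collagen genes, also held no gene that passed in either comparison. Other basement membrane proteins were higher in 14 of 19 measured genes without control mouse 1 (median 0.12) and in 14 of 19 with all 10 arrays (median 0.17). Lamb3, a laminin chain of epithelial basement membrane, differed by 0.41 ± 0.11 (SE) and 0.29 ± 0.15 (SE) in these comparisons, with limma adjusted p of 0.0917 and 0.675. Other fibril-associated proteins were higher in 17 of 19 without control mouse 1 (median 0.13) and in 10 of 19 with all 10 arrays (median 0.0015). TGF-beta pathway genes were higher in 16 of 18 in both (medians 0.17 and 0.14). In these comparisons 56.2% and 50.9% of all genes were higher (medians 0.025 and 0.0031). Tgfbr3, the co-receptor betaglycan, differed by 0.44 ± 0.11 (SE) without control mouse 1 and 0.25 ± 0.19 (SE) with all 10 arrays, with limma adjusted p of 0.0797 and 0.794. Smad4, the shared signal transducer, differed by -0.35 ± 0.099 (SE) and -0.26 ± 0.13 (SE), with limma adjusted p of 0.107 and 0.666.

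Promoter windows around annotated starts were found in the RefSeq table for 33 of the 42 chains, in 36 windows. TATAAA on either strand was in 13.9% of these windows and 13.6% of all 32851 windows, and CCAAT was in 36.1% and 37.4%. GGGCGG was in 61.1% of collagen windows, those of Col4a1, Col4a2, Col6a2 and Col23a1 among them, and in 35.7% of all windows. The capitals of different motifs do not overlap in the printed stretches, and a match says only that the letters are there.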

How the data were processed

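The authors deposited 1 table of log2 values for 10 arrays, made with RMA per the submitters' processing notes. The RMA software was not given in the sources used here. The values ran from 1.22 to 14.4, as base 2 would give. Because RMA equalises the arrays, a change in total RNA is hidden, and small signals are compressed. Of 45101 probe sets, 34945 carried 1 gene symbol, 932 several and 9160 none, beside 64 control probe sets. The lowest 40 percent of probe sets by mean were left out, and the brightest probe set stood for each gene, giving 13666 genes.

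Groups came from the sample titles. Stressed minus control was fitted with limma 3.58.1 (lmFit, eBayes) in R 4.3.3, with Benjamini-Hochberg adjustment over all genes tested and a threshold of 0.05. The fit was tested on simulated data. No array carries a read depth, and the number of mice limits precision.

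The collagen genes, 7 lists of related genes and 12 marker lists were chosen with earlier results of these data known. Values per mouse were given for chains that passed, the 3 of each class with the smallest p in either comparison, and the 2 of each class with the highest mean. Col1a1 was added after its values were seen. Of the other lists, genes that passed, or otherwise up to 2 with the smallest p in each comparison, could be named. Alternatives covered the filter, the probe set rule, each mouse left out, a replicate block, array weights, a trended robust fit and the 3' to 5' ratio.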

Additional observations from a re-analysis of the deposited data

Results flagged for a closer look

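Values of 1 mouse stood apart from the rest of its group in 7 of 60 groups of 5 mice (30 measured chains in 2 groups), by Dixon's criterion for 5 values, which chance meets in about 1 in 20 groups. Of these 7, 5 were high values of control mouse 1. Col8a1 was at 7.96 there, against at most 5.68 in the other controls. Col23a1 was at 7.12, against at most 6.37. Col4a6 was at 5.61, against at most 4.74. Col16a1 was at 7.04, against at most 6.71, and Col15a1 at 6.13, against at most 5.77. The other 2 were low values: Col8a1 was at 5.18 in stressed mouse 2, against at least 5.61 in the other stressed mice, and Col12a1 was at 5.87 in control mouse 3, against at least 6.58 in the other controls. In 30 groups of control mice 2 to 5, 0 values stood apart by the criterion for 4 values.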

How the results depend on the processing

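Without control mouse 1, Col23a1 kept its direction in all 16 alternatives and passed in 7. The count of collagen chains that passed there was 1, with 0 under the replicate block, 2 with array weights and 0 with the 3' to 5' ratio as a covariate, and it ran from 0 to 2 when a further mouse was left out. Col20a1 was the added chain, with an adjusted p of 0.0457 without control mouse 5 and 0.0477 with array weights. With all 10 arrays the count ran from 0 to 1 when a mouse was left out, the 1 being without control mouse 1, and was 0 otherwise. The number of all genes that passed moved with the setting too. Of 13666 genes, 0 passed with all 10 arrays, 109 without control mouse 1, and 41 with all 10 arrays and array weights. These counts of chains are therefore not a result about collagens apart from other genes. With the lowest 60 percent of probe sets removed, fewer chains were tested and the median difference of the other chains was 0.099 with all 10 arrays and 0.19 without control mouse 1.

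Replicate numbers are not stated to pair the mice. Same-numbered mice deviated from their group means together at correlations of -0.30 to 0.28, values too few to show whether the numbers pair mice. Under the replicate block without control mouse 1, where stressed mouse 1 has no partner, the adjusted p of Col23a1 was 0.0749, and differences turned to -0.088 for Col3a1, -0.089 for Col5a2, -0.0049 for Col4a1 and -0.081 for Col6a2.

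All reversals, those under the replicate block included, were of differences that did not pass, and their cause was not tested. With the 3' to 5' ratio as a covariate and all 10 arrays, differences turned to -0.12 for Col1a2, -0.049 for Col27a1, -0.21 for Col4a1, -0.11 for Col4a2 and -0.045 for Col6a3. Without control mouse 1 they turned to -0.15 for Col3a1, -0.15 for Col5a2, -0.0033 for Col5a3, -0.098 for Col4a1, -0.0032 for Col4a2, -0.028 for Col4a6 and -0.13 for Col6a2. Array weights turned Col5a3 to 0.027 and Col4a6 to 0.037 with all 10 arrays, and Col3a1 to -0.023, Col5a2 to -0.060 and Col6a2 to -0.023 without control mouse 1. The mean of a gene's probe sets turned Col4a6 to 0.014 with all 10 arrays and Col6a2 to -0.0068 without control mouse 1.

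With 1 mouse left out of all 10, differences ran from -0.022 to 0.25 for Col1a2, -0.18 to 0.034 for Col3a1, -0.16 to 0.034 for Col5a2, -0.18 to 0.13 for Col5a3, -0.033 to 0.098 for Col27a1, -0.13 to 0.15 for Col4a1, -0.050 to 0.17 for Col4a2, -0.094 to 0.45 for Col4a5, -0.19 to 0.11 for Col4a6 and -0.15 to 0.036 for Col6a2. With a further mouse left out beside control mouse 1, they ran from -0.088 to 0.12 for Col3a1, -0.089 to 0.10 for Col5a2, -0.0049 to 0.28 for Col4a1 and -0.081 to 0.11 for Col6a2. Col6a4, Col13a1, Col20a1 and Col23a1 kept their sign in every alternative run, in both comparisons. Col5a3, Col4a6 and Col20a1 had no value with the lowest 60 percent removed.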

Other observations

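Control mouse 1 was the highest of the 5 control mice for 18 of 30 measured chains, against 43.8% of all genes, 6 of 7 fibrillar and 4 of 4 basement membrane chains among them. Its mean over the 30 chains, relative to the 9 other arrays, was 0.27, with 0.42 over fibrillar, 0.79 over basement membrane and 0.097 over other chains. It was above all 9 other mice for 10 of the 30 (Col3a1, Col5a3, Col27a1, Col4a5, Col4a6, Col14a1, Col16a1, Col15a1, Col23a1 and Col8a1) and below all of them for 5 (Col6a4, Col9a3, Col13a1, Col10a1 and Col7a1). Over all genes tested it was above the others for 34.6% and below for 18.6%. Col6a4 was at 6.54 there, against 7.35 to 7.99 in stressed mice and 7.09 to 7.38 in control mice 2 to 5.

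Of 16 chains with more than 1 probe set above the floor, the probe sets gave differences of one sign for 13 without control mouse 1 and for 10 with all 10 arrays. The exceptions without control mouse 1 were Col1a1, Col20a1 and Col6a2.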
